A study of Drosophila melanogaster with 3 samples.

Results

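The 225 regions described here are ChIP-seq peaks of Methoprene-tolerant (Met) whose summit, the base of highest signal, lay inside an annotated exon and over 500 bp from every annotated transcription start site (TSS). They were chosen by position alone from the 8513 peaks of the authors' list thresholded by irreproducible discovery rate (IDR) in white prepupae of *Drosophila melanogaster* and made up 2.64% of them. A 5′ UTR held 46 of the summits, a coding exon 17, a 3′ UTR 62 and an exon of a noncoding RNA 100. Among the other peaks, 2776 summits lay within 500 bp of a TSS, 3833 in introns and 1679 between genes.

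The animals came from 1 strain, Met-GFP, whose stable transgene expresses Met fused to a C-terminal GFP, and all samples carried it. Chromatin of whole prepupae, males and females pooled, was sheared by sonication to 200 to 800 bp and precipitated with an antibody against the tag. There was 1 group of 3 biological replicates with separate biosample records and no untreated or hormone-treated group, and the age is not known. Tissues cannot be told apart in whole animals, and the labels do not say which promoter drives the transgene or whether the animals also have their own Met.

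Met is a transcription factor of the bHLH-PAS family and a receptor of juvenile hormone, the insect hormone that keeps larvae from maturing. With its partner Taiman it binds E-boxes and the related C-boxes in hormone-responsive genes. Exons can hold regulatory DNA: a 5′ UTR often overlaps an alternative promoter, a 3′ UTR often adjoins the next gene, and exons of noncoding RNAs lie in sequence that may also act as an enhancer. Coding exons carry a protein sequence and are rich in G and C in *Drosophila*.

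Stretches of 30 bases show what lay under these summits, read from the plus strand of the RefSeq Release 6 assembly (dm6). Where a palindromic E-box, CACGTG, or a C-box, CACGCG, lay within 50 bp of the summit, its letters are in capitals, and in the other stretches the capital is the summit base. The noncoding RNA gene lncRNA:CR9162, which holds the strongest of the exonic peaks, had an E-box at chr2L:6079140-6079169, and lncRNA:CR44619 had one at chrX:12754452-12754481. The 3′ UTR of CG7872 had a C-box on the minus strand, read here as CGCGTG, at chrX:15579788-15579817, and a 5′ UTR of baz had one on the plus strand at chrX:17178774-17178803.
lncRNA:CR9162, noncoding exon: tggtttgcgatgCACGTGttggcggtcaat
lncRNA:CR44619, noncoding exon: gtgagcaccagaCACGTGactctttcaaaa
CG7872, 3′ UTR: gcacgccacattCGCGTGtttcctaactaa
baz, 5′ UTR: ttcttccgagtgCACGCGatcttgcgctct
The next stretches show the composition of strong summits in a 5′ UTR (Raf, chrX:2296298-2296327), in coding exons (CG10357, chr3L:3616523-3616552, Ubr1, chrX:16967610-16967639, and klar, chr3L:506255-506284), in 3′ UTRs (Ance-3, chr2L:13955897-13955926, and APC7, chrX:6599499-6599528) and in noncoding exons (lncRNA:CR46035, chr3R:17704397-17704426, and lncRNA:Vinr, chrX:12751339-12751368).
Raf, 5′ UTR: taaagtcaaaatcttAcaaatcgcagtatt
CG10357, coding exon: ggccagggcaggaacTcacatttctgattt
Ubr1, coding exon: gagcggcgaactgcaCtcggcagggggcgc
klar, coding exon: acccagacccaaggtGgcgctgctgtgcag
Ance-3, 3′ UTR: aagaaagatgattcaTgaagtagattcaga
APC7, 3′ UTR: aagtgaatgttttttTtttgttattaagaa
lncRNA:CR46035, noncoding exon: ttgtttctgatcaagTcactcatcaaaaga
lncRNA:Vinr, noncoding exon: cttacatgtttctgtTaaaaattttgtgtt
Among the coding stretches, G and C made up 76.7% of the 30 bases at Ubr1, 66.7% at klar and 50% at CG10357. They made up 26.7% at Raf, 30% at Ance-3, 16.7% at APC7, 33.3% at lncRNA:CR46035 and 23.3% at lncRNA:Vinr. The 30 bases centred on the summits of lncRNA:CR9162 and CG7872, not printed, had 50% and 46.7%. Those at the 5′ UTR summits of cic and eas, also not printed, had 46.7% and 26.7%.

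The exon kinds held very different numbers of summits for the sequence they offer. Coding exons over 500 bp from a TSS make up 13.8% of the sequence of the 6 major chromosome arms and held 0.200% of the IDR summits, 68.9-fold less. The 3′ UTRs make up 4.43% and held 0.728%, 6.09-fold less. The 5′ UTRs make up 0.780% and held 0.540%, 1.44-fold less. Noncoding exons were the exon kind whose share of summits, 1.17%, was above its share of bases, 0.737%, by 1.59-fold. Counted per megabase, that is 101.3 summits in noncoding exons, 44.0 in 5′ UTRs, 10.4 in 3′ UTRs and 0.923 in coding exons. Introns, for comparison, had 72.6 per megabase.

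The order of these shares of summits, from noncoding exons through 3′ UTRs and 5′ UTRs to coding exons, was the same in each replicate at this distance limit. It depended on the limit: over 250 bp from a TSS there were 89 summits in 5′ UTRs and 81 in 3′ UTRs, and over 1000 bp there were 56 in 3′ UTRs and 52 in noncoding exons. This order is of shares and counts. Per megabase, over 500 bp from a TSS, 5′ UTRs (44.0) were above 3′ UTRs (10.4). The bases of each kind at the other limits are not given here, so the order per megabase is not known there. In the strongest 8513 peaks of replicates 1, 2 and 3, coding exons held 18, 15 and 14 summits, or 0.184% ± 0.0243 (SD, n = 3). The 3′ UTRs held 64, 78 and 65 (0.811% ± 0.0926), the 5′ UTRs 50, 58 and 55 (0.639% ± 0.0481) and noncoding exons 90, 95 and 95 (1.10% ± 0.0348). The ranges of the 3 replicates overlapped between no 2 exon kinds. Counts are small, above all in coding exons, and the distance from these shares to the shares of bases was many times the spread between replicates for coding exons and 3′ UTRs. For noncoding exons (0.737% of bases) and 5′ UTRs (0.780% of bases) the distance was also larger than that spread. No test was made: there was 1 group, its control was not analysed here, and neighbouring bases and peaks are not independent. SDs are over the replicate lists.

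**Figure D1:**
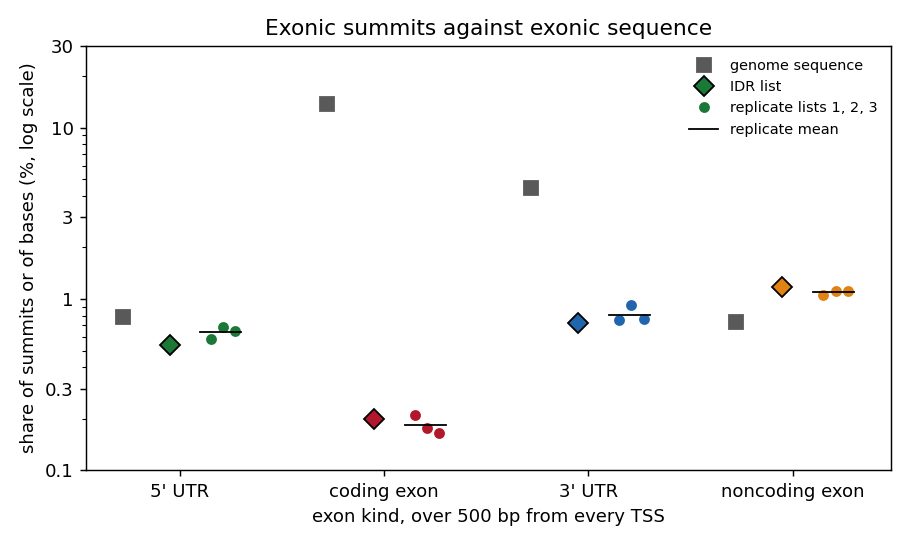
Share of summits in each exon kind over 500 bp from every TSS (percent, log scale), with grey squares for the share of genome sequence, diamonds for the IDR list and circles for the 3 replicate lists, whose mean is the black line. Coding exons are at 0.200% of IDR summits against 13.8% of sequence, and noncoding exons are the exon kind above its square.

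How many coding exons and 3′ UTRs were among the peaks turned on how strong the peaks were. The IDR list is the strongest 8513 of 30000 pooled peaks by the authors' signal value. Among the 21487 weaker pooled peaks, coding exons held 0.977%, 3′ UTRs 2.56%, 5′ UTRs 0.852% and noncoding exons 1.14%. In the replicate lists, coding exons rose from 0.140% ± 0.0345 of the first 5000 peaks to 2.67% ± 1.20 of the last 5000 (SD, n = 3). The last value was 4.06% in replicate 1, 2.06% in replicate 2 and 1.90% in replicate 3, so replicate 1 stood apart, and all 3 were above the 0.180%, 0.120% and 0.120% of their first 5000 peaks. The 3′ UTRs went from 0.581% ± 0.0701 to 3.87% ± 0.662, which nears their 4.43% of the sequence, while coding exons stayed under theirs. Noncoding exons were at 0.988% ± 0.0509 among the strongest and 1.18% ± 0.122 among the weakest. The 5′ UTRs were highest in the middle, at 1.09% ± 0.147 for ranks 10001 to 15000. The weak end of a relaxed list is meant to hold background, and what share of it is binding was not tested.

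**Figure D2:**
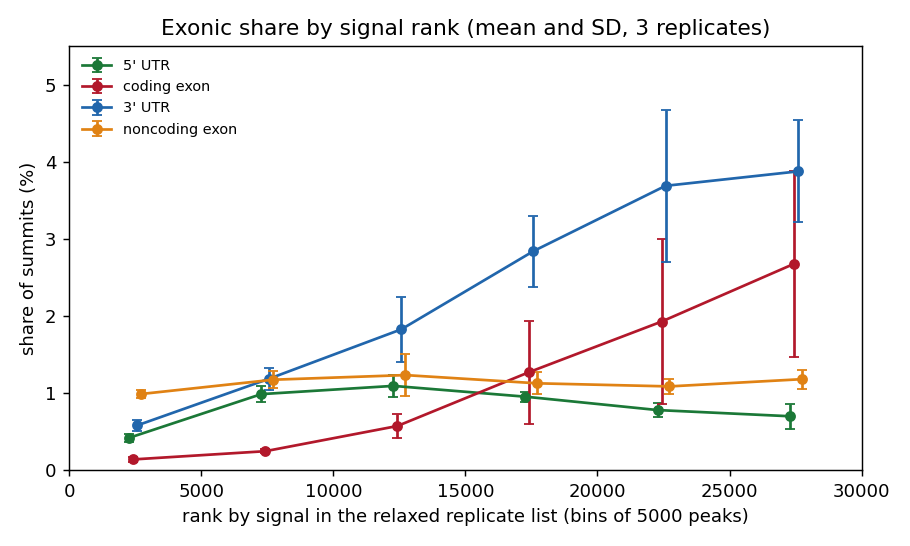
Share of summits in each exon kind (percent) over successive bins of 5000 peaks ranked by signal in each replicate's list of 30000, as mean and SD of 3 replicates, with points shifted slightly sideways for legibility. Coding exons and 3′ UTRs gain share toward weak peaks, to 2.67% and 3.87%, and noncoding exons stay near 1%.

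Within the IDR list the exonic peaks were weaker than the typical peak. Signal here is the value the authors' peak caller wrote for each peak, which serves only to rank peaks within a list. The median signal percentile was 37.7 for the 225 exonic peaks, against 50 for all IDR peaks, and with each replicate's own ranks it was 38.3 ± 2.11 (SD, n = 3). It was 34.9 in 5′ UTRs, 28.2 in coding exons, 36.1 in 3′ UTRs and 45.4 in noncoding exons. The stronger 4256 IDR peaks included 84 of the 225, of which 13 lay in 5′ UTRs, 6 in coding exons, 25 in 3′ UTRs and 40 in noncoding exons. The strongest 851 IDR peaks held 17, of which 8 lay in noncoding exons and 6 in 3′ UTRs. Each kind still had members both among the strongest 851 and near the bottom of the list.

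**Figure D3:**
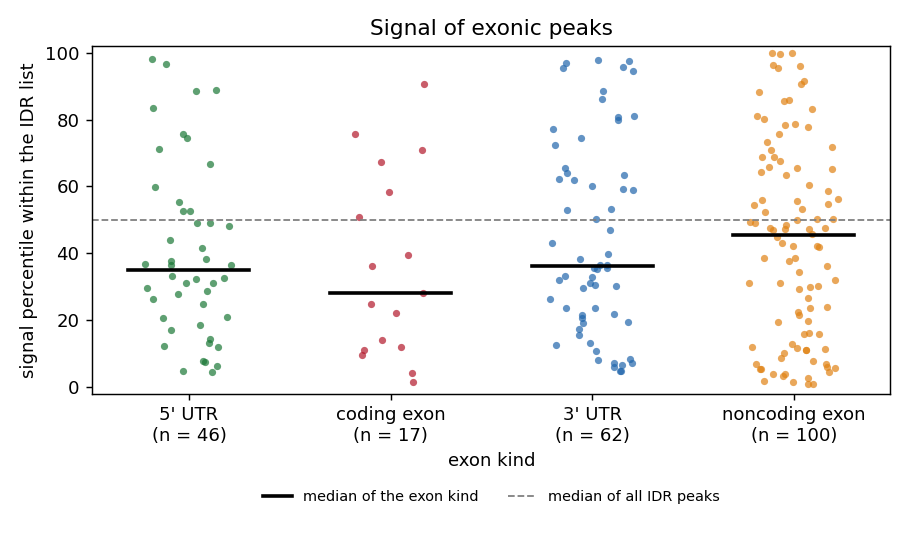
Signal percentile within the IDR list of every exonic peak (points, 1 per peak, spread sideways at random), with the median of each exon kind (black bar) and of all IDR peaks (dashed line at 50). The medians run from 28.2 in coding exons to 45.4 in noncoding exons, and the top of the list is reached by noncoding exons.

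Of the 225 exonic peaks, 149 (66.2%) overlapped a peak among the strongest 8513 of all 3 replicates by at least 1 bp, against a background of 73.6% over all IDR peaks. The share was 60.9% in 5′ UTRs (28 of 46), 58.8% in coding exons (10 of 17), 64.5% in 3′ UTRs (40 of 62) and 71.0% in noncoding exons (71 of 100). In the whole lists of 30000 peaks 221 of the 225 recurred in all 3, and 98.3% of all IDR peaks did. Among the strongest 8513, a further 46 overlapped in 2 replicates, 28 in 1 and 2 in none. Both of the last, in lncRNA:CR45580 and lncRNA:CR32636, were weak, with ranks 7998 and 8234. Recurrence followed signal: with the IDR list cut into 5 equal groups from strong to weak, 30 of 30, 33 of 33, 41 of 43, 38 of 58 and 7 of 61 exonic peaks recurred in all 3. All IDR peaks of these groups recurred at 99.1%, 97.9%, 94.2%, 60.0% and 16.6%, so at a given strength the exonic peaks were near the rest of the list. The signal that set the groups is pooled from the same 3 replicates, so a fall from strong to weak groups is built in. Nearest replicate summits within 100 bp lay a median of 17 bp away over 646 pairs, and in 171 of the 225 all 3 replicate summits fell in the same exon kind.

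**Figure D4:**
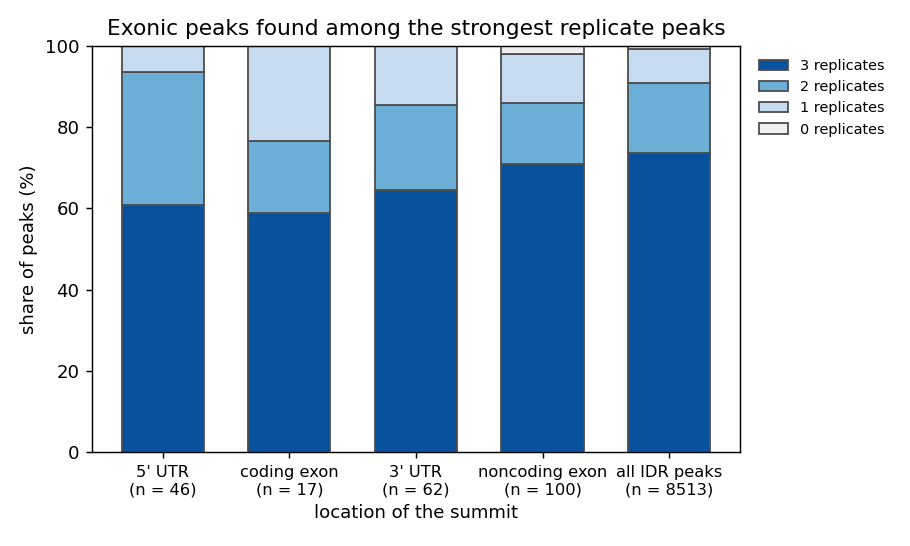
Share of peaks of each exon kind, and of all IDR peaks, that overlapped (at least 1 bp) a peak among the strongest 8513 of 3, 2, 1 or 0 replicates, as stacked bars in percent. The dark part is 71.0% in noncoding exons, 58.8% in coding exons and 73.6% over all IDR peaks.

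The exonic peaks at ranks 2, 13 and 25 lay in noncoding exons, and the next strongest exonic peak was in the 5′ UTR of Fbl6, at rank 152. The peak in lncRNA:CR9162 (chr2L:6078671-6079617, signal 11936) was second of all IDR peaks and second in each replicate. Its summit lay in an exon of 1052 bp, at -3480 bp from the first TSS of Kr-h1, a zinc finger gene induced by juvenile hormone, and at -641 bp from the nearest TSS, that of lncRNA:CR44773. No other exonic peak lay within 5 kb of the first TSS of a gene on the lists for juvenile hormone response or for the receptor and its partners. Later TSSs of these genes were left out of that measure. The 5′ UTR peak of EcR (rank 5732), a gene on the second list, lay 834 bp from such a TSS of EcR. The E-box printed above was centred 31.5 bp from the summit in lncRNA:CR9162. The next, in lncRNA:CR46035, had rank 13, and ranks 12, 18 and 14 in replicates 1, 2 and 3. This noncoding gene lies antisense within osa, which encodes a subunit of the Brahma chromatin remodelling complex, and the summit is intronic there.

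A pair of neighbouring noncoding genes on the X held 2 more of the 6 strongest noncoding peaks. The peak in lncRNA:Vinr had rank 25 and ranks 29, 32 and 22 in the replicates, with its summit at -513 bp from the TSS of lncRNA:CR44619. It therefore lay just past the distance limit, and in replicates 1 and 2 the matched summit was within 500 bp of a TSS. The peak in the last exon of lncRNA:CR44619 had rank 303 and ranks 311, 306 and 285. The others of the 6 strongest noncoding peaks were in lncRNA:CR44363 (rank 342) and lncRNA:CR43334 (rank 393). Over these 6 peaks the ranks in the replicates ran from 2 to 429, and all 6 recurred in all 3 replicates.

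Of the 100 noncoding peaks, 97 lay in genes annotated as lncRNA and 3 in antisense RNAs. The body of a protein-coding gene enclosed 30 of the summits, and 22 had a gene on the other strand. For 64 the nearest TSS was that of the host gene. The host exons had a median of 1442 bp, while the median noncoding-exon base over 500 bp from a TSS lies in an exon of 1720 bp. The median summit lay 348 bp from the exon's nearer edge. The whole peak fell within the exon in 59 cases.

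Among 5′ UTR peaks the strongest was in Fbl6, an F-box gene, with signal 1435, rank 152 and ranks 129, 160 and 188 in the replicates. Raf, the kinase that passes Ras signals to the MAP kinase cascade, followed at rank 298 with ranks 247, 473 and 260. The repressor gene cic, which that same cascade inhibits, was at rank 944 with ranks 978, 883 and 1026. The ethanolamine kinase gene eas (rank 986), the muscle transcription factor gene Mef2 (1408) and the checkpoint kinase gene grp (2079) completed the 6 strongest. All 6 recurred in all 3 replicates. In Raf and grp, whose exons are 200 and 110 bp, the summit of 1 replicate fell outside the 5′ UTR.

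A 5′ UTR summit was usually an intron of another transcript as well. This held for 34 of 46 (73.9%), in 32 of them within the same gene, whereas 38.6% of all 5′ UTR bases over 500 bp from a TSS are intronic in another transcript. The replicate lists gave 71.9% ± 5.63 (SD, n = 3), so the gap was larger than the spread between them. For coding summits it was 6 of 17 (35.3%, and 27.5% ± 5.96 in the replicates, against 12.7% of bases). For 3′ UTRs (11 of 62, 17.7%, against 17.7% of bases) and noncoding exons (34 of 100, 34.0%, against 32.9%) the summits and the bases had like shares. The median 5′ UTR summit lay 826 bp from a TSS and 31 of 46 lay within 1 kb of one, against 6 of 62 in 3′ UTRs.

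The 5′ UTR peaks included those of 3 hormone receptor genes or targets. The gene gce encodes a paralog of Met that is also a juvenile hormone receptor; its peak at rank 6140 (signal 138.2) had ranks 7925, 7304 and 5199. EcR, the ecdysone receptor gene, had one at rank 5732 (signal 147.1) with ranks 6006, 4847 and 6633. The zinc finger gene crol, which responds to ecdysone, had one at rank 7385 with ranks 8562, 6228 and 6746, and so missed the strongest 8513 in replicate 1. These are weak peaks of the list, and each summit lay in a 5′ UTR in all 3 replicates.

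The 3′ UTR peaks were led by Ance-3, a gene of the angiotensin-converting enzyme family, with signal 1321 and rank 184, and signals of 459.8, 447.5 and 416.0 in replicates 1, 2 and 3. Its summit lay 276 bp from the gene's 3′ end and at -1627 bp from NimA, a gene of the Nimrod receptor family. CG7872 followed at rank 221 with signals of 382.5, 465.5 and 403.4, and its summit was 65 bp from the 3′ end. APC7, for a subunit of the anaphase-promoting complex, was at rank 265 with ranks 294, 311 and 229, at -548 bp from the TSS of pigs. CG33307 (rank 363), stas (389) and the calsyntenin gene Cals on chromosome 4 (480) completed the 6 strongest. In all 6, each replicate's summit was in a 3′ UTR too.

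For 31 of the 62 the nearest TSS belonged to another gene, with 15 summits upstream of it and 16 downstream, and 30 lay within 500 bp of the host gene's 3′ end. The 3′ UTR exons were the longest of the coding genes' exons here, with a median of 1757 bp, and 41 of the peaks lay wholly inside the UTR. The hosts included a pair of nuclear receptor genes of the ecdysone response: Hr4 (rank 4227, ranks 4443, 3801 and 6673) and Hr3 (rank 5252, ranks 5067, 6531 and 5756). The sodium channel gene para had a peak at rank 7451 that lay outside the strongest 8513 in replicate 3, where its rank was 11910. A further peak, at rank 5716, lay where the 3′ UTR of Myc, the growth regulator, overlaps that of CG12535 on the other strand, and it cannot be given to either gene.

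The X chromosome held 26 of the 62 3′ UTR summits (41.9%) and 42.1% ± 1.03 of those in the replicate lists (SD, n = 3). It carries 23.5% of the 3′ UTR bases over 500 bp from a TSS. In 5′ UTRs the X share was 26.1% against 21.9% of bases, in noncoding exons 16.0% against 14.7%, and over all IDR peaks 19.8%. In coding exons it was 29.4%, and 29.2% ± 13.3 in the replicates against 17.8% of bases, a gap within the spread. The sexes were pooled in unknown proportion, and the part of X dosage in these shares was not tested.

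The 17 coding peaks were few and mostly weak. The strongest was in the last exon of otp, a homeobox gene, at chr2R:20884437-20884709 with signal 653.0 and rank 802. Its ranks were 574, 1006 and 1130, and all 3 replicate summits were coding. Next came CG10357 (rank 2074, ranks 2013, 2744 and 1914), Ubr1, for a ubiquitin ligase of the N-degron pathway (rank 2473, ranks 2612, 2331 and 2701), and klar, for a nuclear-envelope protein that positions nuclei (rank 2782, ranks 2438, 3789 and 3027). The calmodulin-dependent phosphodiesterase gene Pde1c was at rank 3539 and CG11668 at 4192, and these 6 recurred in all 3 replicates.

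The other named coding peaks were weaker, and some were far lower in 1 replicate. CG10962 (rank 5147) fell to rank 10083 in replicate 3. Socs36E, an inhibitor of JAK/STAT signalling, was at rank 5428. Its ranks were 4584 and 10387 in replicates 1 and 2, with no summit within 100 bp in replicate 3. By overlap of at least 1 bp it was still found among the strongest 8513 of all 3 replicates. The formin gene capu (rank 6113), the splicing regulator gene su(w[a]) (6407), CG6678 (6622) and the histidyl-tRNA synthetase gene HisRS (7324) followed. The remaining 5 were weaker, and of these bin3 (rank 8159) is named for its E-box. It had ranks 12204, 15198 and 6250 and so was in the strongest 8513 of 1 replicate.

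Coding peaks sat in exons with a median of 429 bp, and the median summit lay 84 bp from the exon's nearer edge. In exons this short no summit can lie far from an edge, and a preference for edges was not tested. The coding stretch that held the summit had a median of 189 bp. The median coding base over 500 bp from a TSS lies in a coding stretch of 821 bp. The median coding peak had 52.3% of its length in the coding stretch that held its summit. The like value was 90.2% for 5′ UTR peaks and 100% for 3′ UTR and noncoding peaks. Just 1 of the 17 lay wholly in that coding stretch. Coding sequence of other exons under the same peak was not counted. Replicate summits, counted only where within 100 bp, lay a median of 7 bp away over 48 pairs. Over the 646 pairs of all exonic peaks the median was 17 bp.

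Most coding summits were richer in G and C than their flanks, where most IDR summits were poorer. G and C made up 55.2% ± 9.32 (SD over 17 peaks) of the bases within 50 bp of coding summits and 42.7% of windows 500 bp to each side. The host exons of coding summits had a median of 429 bp, so for most of them these windows lay outside the exon. The summit was below its flanks in 3 of 17, where over all IDR peaks 79.5% were below. In 5′ UTRs the summit had 39.7% and the flanks 40.4% (27 of 46 below). In 3′ UTRs they had 34.8% and 41.8% (47 of 62 below), and in noncoding exons 32.5% and 44.1% (86 of 100 below). Over all 225 it was 163, or 72.4%, and over all IDR peaks the summit and flanks had 33.6% and 43.3%.

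Coding sequence is itself G+C-rich, and coding summits were near it: all coding bases over 500 bp from a TSS have 53.4%. The same held in 3′ UTRs, at 34.8% against 35.2% of all their bases. Noncoding exons and 5′ UTRs were lower at summits than over all their bases, with 32.5% against 41.9% and 39.7% against 45.7%. In the replicate lists coding summits had 56.0% ± 3.28, 5′ UTRs 41.6% ± 0.701, 3′ UTRs 34.5% ± 0.621 and noncoding exons 32.4% ± 0.857 (SD, n = 3). The highest single values were 68.3% at Pde1c and 66.3% at Ubr1 and bin3, and the lowest coding value was 35.6% at su(w[a]). Outside coding exons, the 3′ UTRs of Lsd-2 (63.4%) and qvr (61.4%) and lncRNA:CR43643 (62.4%) passed 60%, and these 3 were noticed after the values were seen.

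**Figure D5:**
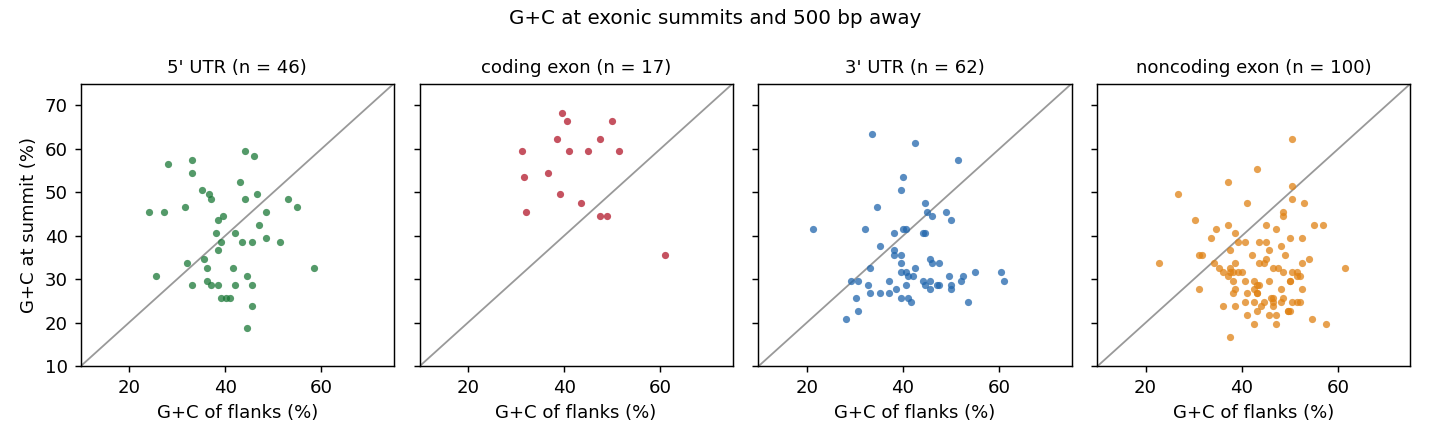
G+C content within 50 bp of each summit (vertical axis, percent) against the mean of windows 500 bp to each side (horizontal axis, percent), 1 point per peak and 1 panel per exon kind, with the line of equality. Most coding summits lie above the line (3 of 17 below) and most noncoding ones under it (86 of 100).

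Few exonic summits had a motif of Met close by. On either strand and within 50 bp of the summit, CACGTG occurred in 3 of 225, against a background of 0.787% of all IDR summits, and CACGCG in 2, against 1.42%. The 3 E-box members were lncRNA:CR9162, lncRNA:CR44619 and bin3, and the 2 C-box members were CG7872 and baz. In lncRNA:CR44619 the E-box lay at -38.5 bp from the summit, in CG7872 the C-box lay at 10.5 bp and in baz at -1.5 bp. The core GCGTG, which a C-box contains on one strand, occurred in 15 (6.67%), against 7.02%. The E-box variant CATATG occurred in 9 (4 in 3′ UTRs and 5 in noncoding exons, lncRNA:CR44619 among them), against 3.88%. The promoter element TATCGATA occurred in 0, against 0.728%. With counts this small, shares of a few percent cannot be told from the background.

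A minority of the listed hormone genes hosted an exonic peak, in some lists a larger share than over all protein-coding genes. Of 16 annotated genes of the juvenile hormone response list none did. Of 14 genes for the receptor and its partners 2 did (14.3%), gce and EcR. Of 37 ecdysone response genes 4 did (10.8%): EcR, Hr3, Hr4 and crol. The insulin and growth list had 1 of 18 (5.56%), Myc, shared with CG12535. The neuron list had 1 of 18 (5.56%), para, and the muscle list 1 of 17 (5.88%), Mef2. The clock list had 0 of 13, the heat shock list 0 of 17 and the housekeeping list 0 of 8. Over all 13945 protein-coding genes 118 did, or 0.846%. The differences of the lists from this share were not tested. The lists were not matched to other genes on length or exon number, and a long gene offers more exon to hold a peak.

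Several genes held more than 1 exonic peak: 16 of the host genes held 40 of the 225. An exon of lncRNA:CR43334 that spans the whole gene, 15466 bp, held 5, at ranks 393, 1685, 2766, 2919 and 3769, all found in all 3 replicates. The lncRNA:CR46006 gene held 4, with ranks from 1906 to 8118. Lsd-2, which encodes a perilipin of lipid droplets, held 3 in its 3′ UTR, at ranks 2352, 3238 and 5478, and for all 3 the nearest TSS was that of dob. The gene baz, for the Par-3 homolog of the apical polarity complex, held 3 in its 5′ UTR, at ranks 4968, 5679 and 5772, and each summit was intronic in another transcript. As many as 3 also lay in lncRNA:CR43650, at ranks 4856, 5939 and 8054, a gene outside the 12 with the strongest members and named here for its count. The gene eas had a 5′ UTR peak and a 3′ UTR peak (ranks 986 and 4853), and so did wts, the Warts kinase gene of the Hippo pathway (ranks 6258 and 2164). CG12535 (besides the peak shared with Myc), CG13284, lncRNA:CR44331, lncRNA:CR45531, lncRNA:CR44831, lncRNA:CR46004 and lncRNA:CR43751 held 2 each. Some of these share a summit region: 29 of the 225 had another IDR summit within 500 bp, 20 of them in noncoding exons, so neighbouring members are not independent.

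The distance limit decided membership for peaks near it. The closest inside were in the 5′ UTRs of CG13921 (505 bp, rank 8120, signal 104.1) and of moody, a receptor gene of the blood-brain barrier (508 bp, rank 5860, signal 144.2). The closest outside were in lncRNA:CR45542 (499 bp, rank 2908, signal 268.8) and lncRNA:CR43704 (499 bp, rank 4490, signal 184.8). Within 500 bp of a TSS, 488 further summits lay in 5′ UTRs, 18 in coding exons, 42 in 3′ UTRs and 136 in noncoding exons.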

How the data were processed

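ChIP-seq peak lists of 1 group of 3 biological replicates were used in dm6. Per the text listings deposited with the libraries, relaxed lists of 30000 peaks were made against 1 control, for the pooled replicates and for each one, and an IDR-thresholded list of 8513 was derived. No aligner or peak caller is given in the sources used here. The deposited signal value of each peak is the authors' own, and library depth is unknown. Membership of the IDR list is therefore pooled signal, not recurrence.

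Summits were placed by Ensembl release 115 (BDGP6.54, without pseudogenes and transposable elements) on 6 chromosome arms, in the order 5′ UTR, coding exon, 3′ UTR and noncoding exon. Shares of sequence used the same classes. Replicate lists were taken to their strongest 8513 peaks. A replicate's rank for a peak is that of the nearest summit within 100 bp in its whole list. The placing step was tested on made-up positions with known answers, and the shares of sequence on random positions. Python 3.11.15, pandas 2.3.3, NumPy 2.4.6 and matplotlib 3.10.9 were used.

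The members and lists were chosen with earlier results of these data known. The text names the 6 strongest members of each exon kind, coding members, members with an E-box or C-box, hosts in the gene lists, genes with several members and those nearest the limit, with at most 12 of a set unless another criterion names a gene. Alternatives were other distances (250 and 1000 bp), the stronger 4256 peaks, peak midpoints, RefSeq genes, the order of exon kinds, other overlap rules and windows, and leaving out each replicate.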

Additional observations from a re-analysis of the deposited data

How the results depend on the processing

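Of the values under alternatives, 47 were labelled as the same and 28 as moved, and the order of exon kinds by count of summits changed with the distance limit. The label of the same allowed wide changes in counts. Over 250 bp from a TSS it took in 25 coding members in place of 17 and 81 3′ UTR members in place of 62. At over 250 bp from a TSS there were 347 exonic peaks (89 in 5′ UTRs, 81 in 3′ UTRs, 152 in noncoding exons), and at over 1000 bp 133 (15 in 5′ UTRs, 10 in coding exons, 56 in 3′ UTRs, 52 in noncoding exons), 36 of them intronic in another transcript. The stronger 4256 IDR peaks held 84 (13 in 5′ UTRs, 6 in coding exons, 25 in 3′ UTRs, 40 in noncoding exons). In replicate lists of that length the mean share was 1.95% (5′ UTR 0.345%, coding 0.118%, 3′ UTR 0.573%, noncoding 0.910%), and over 1000 bp from a TSS 1.60% (0.208%, 0.110%, 0.709% and 0.576%), which puts 3′ UTRs above noncoding exons. CACGCG occurred in 7 peaks within 100 bp of the summit and in 19 anywhere in the peak, and CACGTG in 9 anywhere. Longer windows hold more motifs, and the shares of all IDR peaks at these windows are not given here. These counts therefore cannot be set against the background within 50 bp. Within 100 bp of the summit, in place of 50, G+C was 37.2%. Counting introns of the same gene alone gave 43. The RefSeq models gave the same 225 members, but both annotations derive from FlyBase. No paired analysis was possible because there was 1 group. Peak lists without depth, a control or a second condition limit these results to descriptions.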
